A study of Homo sapiens with 4 samples.

Results

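The subject is a set of 8 p53 target genes that act in apoptosis through mitochondria or beside that pathway: BAX, BBC3, PMAIP1, APAF1, AEN, PERP, TP53AIP1 and AIFM2. They are 8 of 20037 protein-coding RefSeq genes on the GRCh38 chromosomes used. They were chosen by name for their role, with earlier results of these data known. The data are p53 ChIP-seq peak lists from H1299, an established non-small-cell lung carcinoma line labelled p53-/-, in which a p53 form was expressed. One group expressed the CASM34 mutant (2 libraries) and the other wild-type p53, p53WT (2 libraries). The series title places CASM34 among synonymous mutations found in cancer. All 4 libraries share the p53-null host line and DO-1, the p53 antibody used for precipitation. Nothing in the labels gives a drug, a time point, the way p53 was expressed or whether the replicates came from separate cultures, so any spread between libraries may be technical.

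p53 is a transcription factor that binds DNA at a pair of short half-sites and raises the transcription of genes that arrest the cell cycle or kill the cell. In the mitochondrial route, BH3-only proteins disarm the survival proteins of the BCL2 family, BAX or BAK1 then open the outer mitochondrial membrane, and released cytochrome c assembles with APAF1 into the apoptosome that activates caspase 9. BBC3 and PMAIP1, also called PUMA and NOXA, are BH3-only proteins. TP53AIP1 is a mitochondrial protein linked to loss of membrane potential. AEN is a nuclease, PERP is a membrane protein of cell junctions, and AIFM2, also called FSP1, is an oxidoreductase known for limiting lipid peroxidation.

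A gene was counted as called in a library when the summit of a deposited peak lay inside the gene or within 10 kb of it. Over the 4 lists, 9 of 11488 peaks met this rule at the 8 genes. APAF1, AEN and PERP had a peak in both libraries numbered 2, CASM34 2 and p53WT 2. BAX had one in CASM34 2 alone, BBC3 in p53WT 2 alone and AIFM2 in CASM34 1 alone. PMAIP1 and TP53AIP1 had none. Calls in both libraries numbered 2 were thus made for 3 of the 8 genes (37.5%), against 5.43% of all protein-coding genes. Of the libraries numbered 2, CASM34 2 alone called 1 gene of the 8 and p53WT 2 alone 1 gene, against 5.43% and 10.8% of all protein-coding genes. Because the genes were chosen with earlier results known, these shares describe the list and are no test of it.

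Shown next are the promoter windows that a peak reached: those of AEN, PERP and BAX, and that of IKBIP, which lies beside APAF1. The windows hold the upstream part of these peaks and none of their summits, which lie farther downstream. Of the CASM34 2 peaks they hold 102 of 263 bases at AEN, 76 of 217 at PERP and 21 of 182 at BAX. Each window runs from 250 bases before to 50 bases after the annotated start, 5′ to 3′ on the gene's strand, taken from RefSeq on GRCh38.p14. Capitals mark bases covered by a deposited peak, in both CASM34 2 and p53WT 2 for AEN and PERP, in CASM34 2 for BAX, and in p53WT 2 for IKBIP. The windows lie at chr15:88621090-88621389 on the plus strand (AEN), chr6:138107370-138107669 on the minus strand (PERP), chr19:48954625-48954924 on the plus strand (BAX) and chr12:98644739-98645038 on the minus strand (IKBIP).
AEN: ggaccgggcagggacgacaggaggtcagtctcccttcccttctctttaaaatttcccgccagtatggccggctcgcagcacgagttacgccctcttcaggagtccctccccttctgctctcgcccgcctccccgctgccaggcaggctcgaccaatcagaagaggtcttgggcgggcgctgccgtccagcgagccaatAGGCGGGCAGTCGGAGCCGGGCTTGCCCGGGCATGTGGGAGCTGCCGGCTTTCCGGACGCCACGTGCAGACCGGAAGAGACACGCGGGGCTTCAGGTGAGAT
PERP: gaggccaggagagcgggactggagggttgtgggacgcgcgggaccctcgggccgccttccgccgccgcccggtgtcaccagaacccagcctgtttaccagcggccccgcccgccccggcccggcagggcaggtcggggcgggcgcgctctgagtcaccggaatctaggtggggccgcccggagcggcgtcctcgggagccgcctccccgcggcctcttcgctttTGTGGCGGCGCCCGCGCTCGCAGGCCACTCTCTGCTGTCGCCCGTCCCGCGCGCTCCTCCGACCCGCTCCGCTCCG
BAX: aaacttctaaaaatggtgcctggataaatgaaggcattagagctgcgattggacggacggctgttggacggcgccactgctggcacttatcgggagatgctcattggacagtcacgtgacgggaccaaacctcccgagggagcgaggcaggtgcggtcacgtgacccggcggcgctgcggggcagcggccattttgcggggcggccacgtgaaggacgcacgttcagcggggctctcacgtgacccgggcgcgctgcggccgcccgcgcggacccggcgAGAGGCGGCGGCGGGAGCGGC
IKBIP: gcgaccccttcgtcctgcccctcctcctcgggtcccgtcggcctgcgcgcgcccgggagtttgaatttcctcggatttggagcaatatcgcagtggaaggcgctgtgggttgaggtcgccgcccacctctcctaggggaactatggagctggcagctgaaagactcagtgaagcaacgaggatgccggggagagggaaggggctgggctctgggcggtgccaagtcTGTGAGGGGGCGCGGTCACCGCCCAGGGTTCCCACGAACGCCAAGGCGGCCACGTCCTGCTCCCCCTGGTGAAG

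The libraries differed more by number than by group, and this bears on every count that follows. On chromosomes 1 to 22, X and Y the lists held 1712 peaks in CASM34 1 and 3211 in CASM34 2, against 1604 in p53WT 1 and 4961 in p53WT 2. Summits within 1 kb of an annotated protein-coding gene start numbered 59 in CASM34 1 and 974 in CASM34 2, against 26 in p53WT 1 and 1535 in p53WT 2. The lists hold no read counts, so the depth behind them is unknown, and a missing peak does not show missing p53.

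Of the 8 genes, 1 was called in CASM34 1 and 4 in CASM34 2, against 0 in p53WT 1 and 4 in p53WT 2. The share of all protein-coding genes called by the same rule was 1.67% in CASM34 1, 10.9% in CASM34 2, 1.39% in p53WT 1 and 16.2% in p53WT 2. In both libraries numbered 2 the 8 genes were thus called in 50% of cases, above the background of their list. Among the 13523 protein-coding genes between 4310 and 90144 bp, the range of the 8, the shares were 9.39% in CASM34 2 and 14.1% in p53WT 2. In CASM34 1 and p53WT 1 those shares were 1.23% and 0.887%. The part of gene length in the counts was not tested. The 8 genes were chosen with earlier results of these data known, so no test of the set was made.

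The number of genes called did not separate the groups. It averaged 2.5 ± 2.12 in CASM34 and 2 ± 2.83 in p53WT (SD, n = 2 each), a difference of 0.5 that was smaller than either SD. With 2 libraries against 2, an exact two-sided permutation test cannot give a p below 0.333. The difference was -1 without CASM34 2 and -1.5 without p53WT 1. Among the libraries numbered 2 it was 0, and among those numbered 1 it was 1 gene, AIFM2. None of the 8 genes was called by both libraries of one group while missing from the other group. Of all protein-coding genes, 0.0948% showed this pattern for CASM34 and 0.170% for p53WT. At such low shares, its absence from 8 genes says nothing about them.

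**Figure D1:**
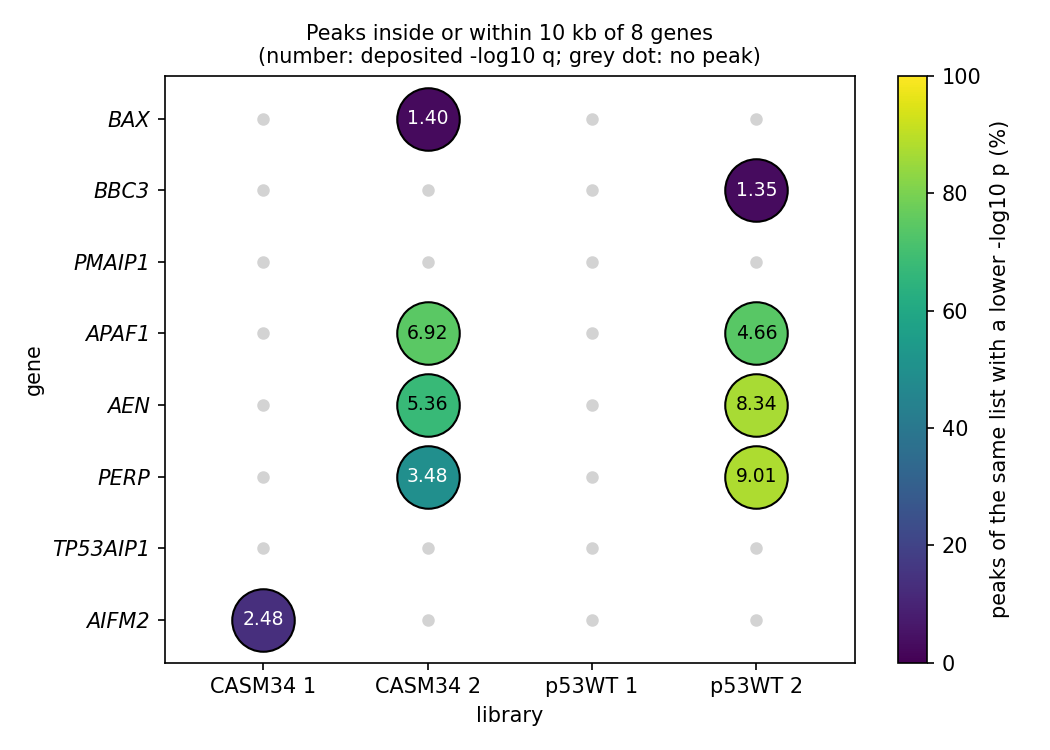
Peaks at the 8 genes (rows) in the 4 libraries (columns). The number in each disc is the deposited −log10 q, the colour is the percent of peaks in the same list with a lower −log10 p, and a grey dot marks a gene without a peak. APAF1, AEN and PERP have a disc in CASM34 2 and in p53WT 2, and PMAIP1 and TP53AIP1 have none.

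**Figure D2:**
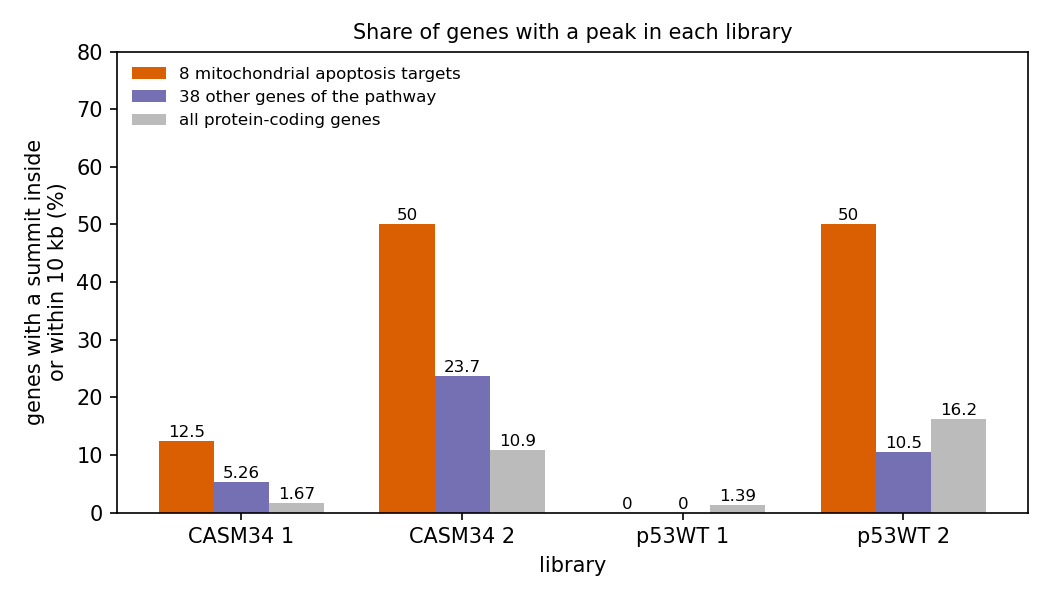
Percent of genes with a summit inside or within 10 kb in each library, for the 8 genes, 38 other genes of the pathway and all 20037 protein-coding genes. In CASM34 2 and in p53WT 2 the 8 genes reach 50%, against 10.9% and 16.2% of all protein-coding genes.

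The BH3-only genes carried little. BBC3 lies on the minus strand of chromosome 19 (47220824 to 47232860). Its peak in p53WT 2 ran from 47231141 to 47231407, with the summit inside the gene, 1480 bp downstream of the annotated start. The peak had a fold of 3.41 over the caller's background and a −log10 q of 1.35, and 3.0% of the peaks of p53WT 2 had a lower −log10 p. It stood at the bottom of its list, whose lowest −log10 q was 1.31, so its absence from CASM34 1, CASM34 2 and p53WT 1 does not show a difference in binding. PMAIP1 (chromosome 18, 59899996 to 59904305) had no peak within 10 kb in any of the 4 libraries, nor any between 10 and 100 kb away.

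BAX, the pore-forming effector, had 1 weak peak. The gene lies on the plus strand of chromosome 19 (48954875 to 48961798). The CASM34 2 peak ran from 48954904 to 48955085, and its summit lay 105 bp downstream of the start. Its fold was 3.76 and its −log10 q 1.40, and 2.4% of the peaks of CASM34 2 had a lower −log10 p. No peak was listed at BAX in CASM34 1, p53WT 1 or p53WT 2, and like that of BBC3 this peak sat close to the lowest value of its list. The peaks of BAX and BBC3 were both lost when peaks had to reach a −log10 q of 3 and when all lists were shortened to 1604 peaks. The 21 capital bases at the end of the BAX window are the part of it that the peak covers.

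APAF1, the scaffold of the apoptosome, had a well-ranked peak in both libraries numbered 2. The gene lies on the plus strand of chromosome 12 (98645290 to 98735433). The CASM34 2 peak ran from 98644521 to 98644714 with a fold of 6.85 and a −log10 q of 6.92, and 74.4% of that list's peaks had a lower −log10 p. The p53WT 2 peak ran from 98644535 to 98644812 with a fold of 5.76 and a −log10 q of 4.66, and 74.0% of that list's peaks had a lower −log10 p. The summits, 670 bp upstream of the APAF1 start in CASM34 2 and 648 bp upstream in p53WT 2, were 22 bp apart.

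These APAF1 summits lay inside another gene. IKBIP (chromosome 12, 98613404 to 98644788) is transcribed away from APAF1 on the minus strand, and in humans it is known as a p53-inducible gene that shares a promoter region with APAF1. The summits were 168 bp downstream of the IKBIP start in CASM34 2 and 146 bp downstream in p53WT 2. Neither peak reached the APAF1 promoter window. The p53WT 2 peak covered 74 bases of the IKBIP window, and the CASM34 2 peak ended before it. A peak list cannot assign this signal to one gene of the pair.

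AEN, the nuclease, was called at an internal start. The annotated gene spans 88604683 to 88632281 on chromosome 15, while the start in the promoter table lies at 88621340. The CASM34 2 peak ran from 88621288 to 88621550 with a fold of 6.02 and a −log10 q of 5.36, and 67.3% of that list's peaks had a lower −log10 p. The p53WT 2 peak ran from 88621258 to 88621688 with a fold of 7.57 and a −log10 q of 8.34, and 86.9% of that list's peaks had a lower −log10 p. The whole CASM34 2 peak lay within the p53WT 2 peak, and the summits were 13 bp apart, 93 bp downstream of the start in CASM34 2 and 106 bp in p53WT 2.

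PERP was called at its start as well. The gene lies on the minus strand of chromosome 6 (138088505 to 138107419), with the annotated start at 138107419. The CASM34 2 peak ran from 138107229 to 138107445 with a fold of 5.09 and a −log10 q of 3.48, and 49.6% of that list's peaks had a lower −log10 p. The p53WT 2 peak ran from 138107156 to 138107478 with a fold of 7.51 and a −log10 q of 9.01, and 87.7% of that list's peaks had a lower −log10 p. The summits lay 61 bp downstream of the start in CASM34 2 and 87 bp in p53WT 2, 26 bp apart, and all 217 bp of the CASM34 2 peak fell within the p53WT 2 peak. The lists differ in length, and each form has 1 library that called the gene, so these ranks do not compare the forms. With all lists shortened to 1604 peaks, PERP kept its call in p53WT 2 and lost that in CASM34 2.

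AIFM2 stood apart from the other genes by library and by position. The gene lies on the minus strand of chromosome 10 (70112271 to 70132825). The peak was in CASM34 1, a library in which 1.67% of protein-coding genes were called, and ran from 70134862 to 70135147. Its summit lay outside the gene, 2078 bp upstream of the start, and had a fold of 4.67 and a −log10 q of 2.48. In that list 13.5% of the peaks had a lower −log10 p. The call was lost with a window of 2 kb and with a required −log10 q of 3, and kept with lists of equal length. A call in CASM34 1 and in no other library was seen for 0.344% of protein-coding genes. This was the summit farthest from its gene that the 10 kb limit kept. The nearest summit beyond the limit was 13633 bp from AIFM2 in p53WT 2, with a −log10 q of 1.53, and it lay 242 bp downstream of the start of TYSND1, the next gene.

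TP53AIP1 (chromosome 11, 128934731 to 128942871) has 2 annotated starts in the promoter table and no peak within 100 kb in any of the 4 libraries. The other 6 of the 8 genes (75%) had a call in at least 1 library, against 22.2% of protein-coding genes.

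The peaks of APAF1, AEN, PERP and BAX lay within 1 kb of an annotated start. Of all peaks, 30.3% in CASM34 2 and 30.9% in p53WT 2 had a summit that near a protein-coding gene start. The counts below use peaks already counted above, at genes chosen with earlier results known, so they are not separate support. A summit within 1 kb of an annotated start was found for 0 genes of the 8 in CASM34 1 and 4 in CASM34 2, against 0 in p53WT 1 and 3 in p53WT 2. Over the 15842 protein-coding genes with a start in the table the shares were 0.391% in CASM34 1, 6.49% in CASM34 2, 0.177% in p53WT 1 and 10.0% in p53WT 2. The count averaged 2 ± 2.83 in CASM34 and 1.5 ± 2.12 in p53WT (SD, n = 2 each). The difference of 0.5 was smaller than either SD, and it was -1.5 without CASM34 2 and -1 without p53WT 1. APAF1, AEN and PERP had such a summit in both libraries numbered 2, which 2.76% of those genes did.

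**Figure D3:**
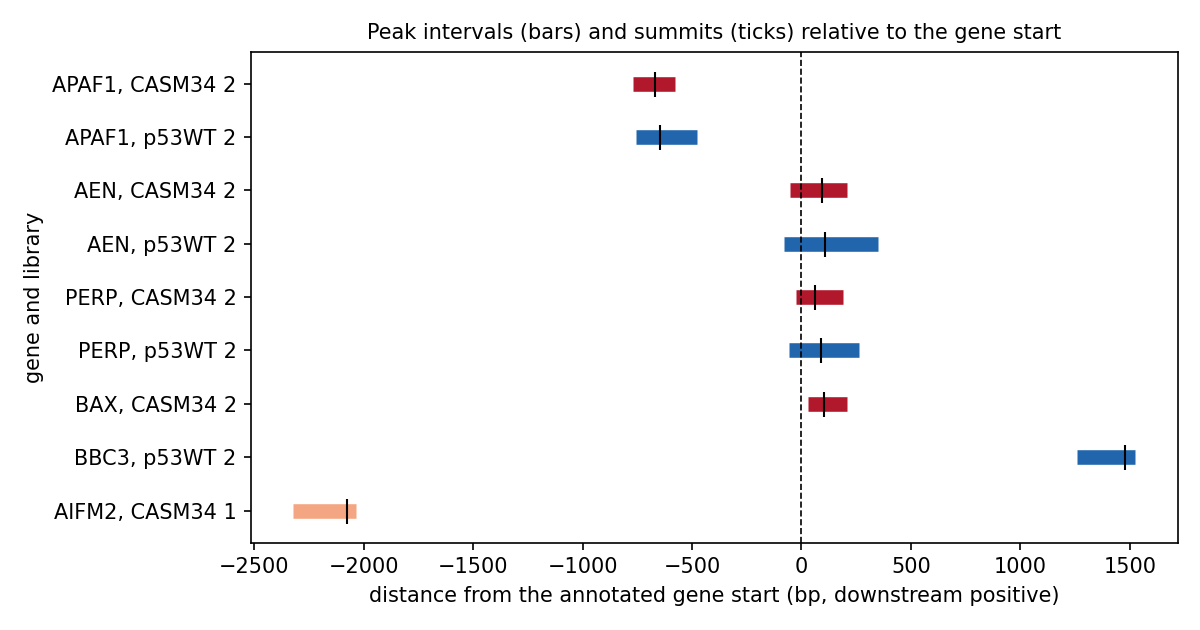
Peak intervals (bars) and summits (ticks) of the called genes, by distance in bp from the annotated start, downstream positive, with CASM34 libraries in red tones and p53WT libraries in blue tones. The AEN, PERP and BAX summits lie between 61 and 106 bp downstream of the start, APAF1 lies upstream, and BBC3 and AIFM2 lie over 1 kb away.

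Where both libraries numbered 2 called a gene, their summits were close together. The distances of 22 bp at APAF1, 13 bp at AEN and 26 bp at PERP can be read against 318 CASM34 2 peaks near gene starts that overlapped a p53WT 2 peak, with a median of 94.5 bp and quartiles of 40.2 and 207 bp. Over all 1425 overlapping peaks the median was 25 bp with quartiles of 8 and 101 bp, so such distances are not particular to these genes. The peaks near gene starts were not matched for strength. These are descriptions of 1 pair of libraries.

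The peaks of the called genes were also ranked among all peaks near gene starts of their list. APAF1, AEN and PERP stand out here by a call in both libraries numbered 2. They were not ranked against other shared peaks alone, so these ranks are no separate trait of the genes. In CASM34 2 a lower −log10 p was held by 97.9% of the 974 such peaks for APAF1, 92.7% for AEN and 70.5% for PERP, and by 2.7% for BAX. In p53WT 2 it was held by 89.3% of the 1535 such peaks for APAF1, 99.3% for AEN and 99.5% for PERP. Within CASM34 2 APAF1 ranked highest of the called genes, and within p53WT 2 PERP did. Each order describes 1 library, and the lists differ in length, so the orders were not compared.

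**Figure D4:**
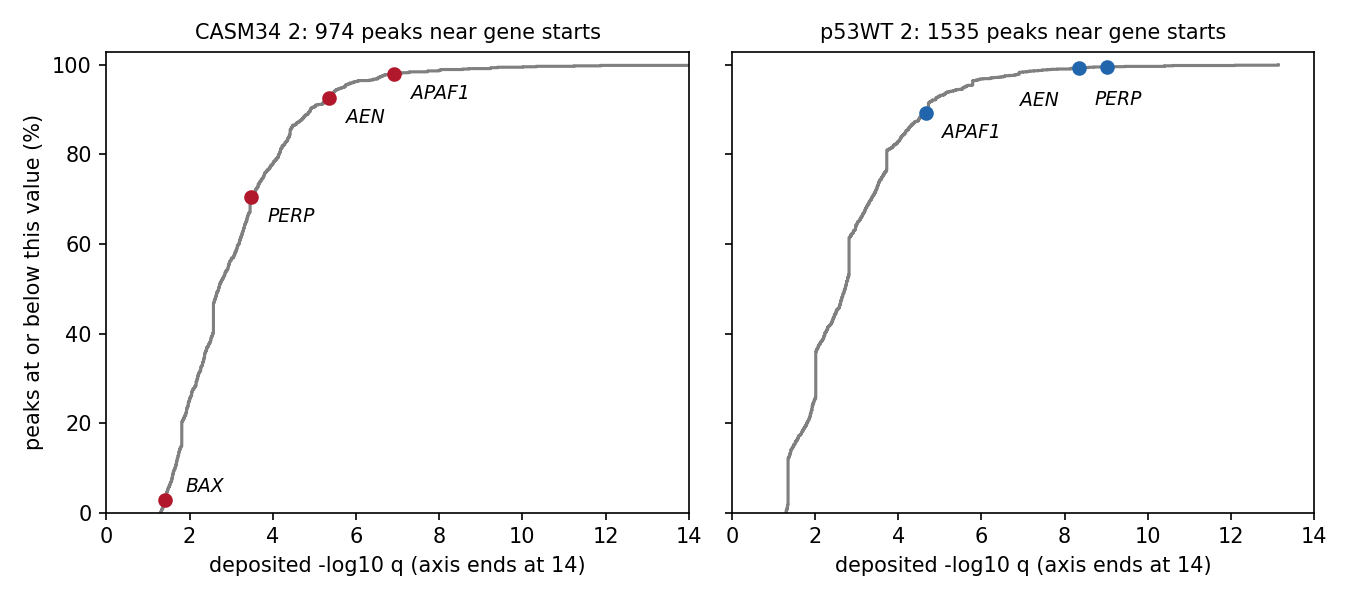
Cumulative share of peaks within 1 kb of a gene start (grey line) by deposited −log10 q in CASM34 2 (left) and p53WT 2 (right), with the genes marked. APAF1 lies at 6.92 in CASM34 2 and 4.66 in p53WT 2, PERP at 3.48 and 9.01, and AEN at 5.36 and 8.34.

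The AEN window held the closest match to the p53 binding consensus among the windows of the 8 genes. The consensus was scored as a pair of adjacent 10-base half-sites with no spacer, a form that reads the same on both strands. Pairs of half-sites with bases between them were not scored. The best 20-base stretch of the AEN window, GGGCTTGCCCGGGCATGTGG, begins at position -34 from the annotated start and matched at 18 of 20 positions. Of 35116 windows in the table, 0.649% matched at 18 or more. This stretch lies in the capitals above, covered by the peaks of both CASM34 2 and p53WT 2, and its initial 10 bases form a complete half-site, which 6.63% of windows hold.

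The other windows held weaker matches. The best stretch matched at 17 positions in PMAIP1 and in 1 of the 2 windows of TP53AIP1, the genes with no peak, a level that 5.20% of windows reach. It matched at 16 positions in BAX and AIFM2 (26.0% of windows), at 15 in PERP, APAF1 and BBC3 (70.5%), and at 14 in IKBIP (97.4%). None of the windows held a pair of CATG cores with 6 bases between them, as in a half-site pair spelled with CATG, which 0.373% of all windows hold (the motif reads the same on both strands). CATG alone was in 1 copy in the windows of APAF1, AEN, AIFM2 and 1 of the 2 of TP53AIP1, and 54.9% of all windows hold it. A match describes the letters of a window of 300 bases, and p53 sites elsewhere in a gene would not be seen.

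The BAX window had a repeated motif of another kind, looked for after the sequences were read. CACGTG, an E-box that reads the same on both strands, occurred 4 times there, at positions -138, -93, -45 and -14 from the start. Of all windows 7.26% hold CACGTG and 0.0142% hold it 4 or more times. None of the 4 copies lay under the BAX peak. The E-box also occurred once in the windows of AEN, BBC3 and TP53AIP1.

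The GC content of the windows that a peak reached was 66.0% for AEN, 77.0% for PERP, 67.3% for BAX and 66.3% for IKBIP, against a median of 58.7% over all windows and quartiles of 47% and 68%. Of these, PERP lay above the upper quartile and the other 3 between the quartiles. Among windows without a peak base, APAF1 and PMAIP1 had 71.3% each, AIFM2 67.0% and BBC3 48.0%.

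The wider pathway was read from a list of 38 other genes of mitochondrial apoptosis, also chosen with earlier results of these data known. Of these, 2 were called in CASM34 1 and 9 in CASM34 2, against 0 in p53WT 1 and 4 in p53WT 2. Their shares were 5.26% in CASM34 1 and 23.7% in CASM34 2, against 0% in p53WT 1 and 10.5% in p53WT 2. In CASM34 2 the share was above that of all protein-coding genes (10.9%), and in p53WT 2 it was below (16.2%). The number averaged 5.5 ± 4.95 in CASM34 and 2 ± 2.83 in p53WT (SD, n = 2 each), and the difference of 3.5 lay within the larger SD and was 0 without CASM34 2. When a −log10 q of 3 or more was required, the counts were 0 and 4 in CASM34 1 and CASM34 2, against 0 and 1 in p53WT 1 and p53WT 2. At 5 they were 0 in all 4 libraries. With lists of equal length they were 2 in CASM34 1 and 2 in CASM34 2, against 0 in p53WT 1 and 0 in p53WT 2.

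Of 10 further p53-linked apoptosis genes, 6 (60%) were called in CASM34 2, where 10.9% of all protein-coding genes were called. In p53WT 2 it was 2 (20%), close to the 16.2% of all protein-coding genes. In CASM34 1 it was 1 gene and in p53WT 1 it was 0. These genes were chosen with earlier results known, so the shares are no test of them. Each share comes from 1 library and the lists differ in length, so the shares do not compare the forms. TP53INP1, a p53-induced stress protein, was called in CASM34 1, CASM34 2 and p53WT 2, with a best −log10 q of 2.58, 4.59 and 3.86. EI24 was called in CASM34 2 (1.59) and p53WT 2 (1.35), with summits 177 and 134 bp downstream of the start. FDXR, the ferredoxin reductase of mitochondria, had a summit 122 bp downstream of its start in CASM34 2, with a −log10 q of 3.17. TP53I3, a quinone oxidoreductase, had one 330 bp downstream (3.32), and TRIAP1, an inhibitor of apoptosis in the mitochondrial intermembrane space, 135 bp downstream (4.34), both in CASM34 2. The PIDD1 call in CASM34 2 rested on a summit 3934 bp outside the gene (1.95).

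The calls among the core machinery were few and can be read against the same backgrounds, 1.67% and 10.9% of all protein-coding genes in CASM34 1 and CASM34 2 and 1.39% and 16.2% in p53WT 1 and p53WT 2. None of the 9 genes for the apoptosome, caspases and released factors, which include CYCS and CASP9, was called in any of the 4 libraries, and with 9 genes such a count is near those backgrounds. Among 5 survival genes of the BCL2 family, BCL2 had a summit 1276 bp downstream of its start in CASM34 1 (−log10 q 2.54). Among 8 effector and BH3-only genes, 1 (12.5%) was called in CASM34 2 and 2 (25%) in p53WT 2. BOK was called in CASM34 2 (1.58) and, 9598 bp outside the gene, in p53WT 2 (1.52). BCL2L11, the BH3-only protein BIM, was called in p53WT 2 (2.58). Of 4 inhibitors of caspases, BIRC5 was called in CASM34 2 (1.47), and of 2 channel genes, VDAC1 was called in CASM34 2 (2.16).

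Peaks at the most studied p53 targets were listed in the libraries numbered 2 as well. CDKN1A encodes p21, an inhibitor of cyclin-dependent kinases, and had a best −log10 q of 10.70 in CASM34 2 and 3.39 in p53WT 2. MDM2, the ubiquitin ligase that limits p53, was called in p53WT 2 alone, with 3.50. The APAF1 peak of CASM34 2 (6.92) thus lay below the upstream CDKN1A peak of its list. In p53WT 2, AEN (8.34) and PERP (9.01) lay above the peaks just downstream of the CDKN1A and MDM2 starts. That list held no peak at the upstream CDKN1A position, so it gives no comparison with that position.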

How the data were processed

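p53 ChIP-seq peak lists of 4 libraries were used as deposited, 1 list per library with replicates not pooled. Micrococcal nuclease and sonication fragmented the chromatin, per the labels' protocols. Trim Galore, Bowtie2, bedtools and the build GRCh38 are listed in the submitters' processing notes. Which caller, control and threshold made the peaks is not given in the sources used here. Each deposited row gives a fold (the ratio of signal over the caller's background), a −log10 p, a −log10 q, a score that follows the −log10 q, and a summit. These values are the authors' own, and they were used to describe, rank or filter peaks within 1 list.

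Where several rows shared an interval, the one with the best −log10 p was kept. Chromosomes 1 to 22, X and Y were used. Genes came from RefSeq on GRCh38.p14, where 15842 of 20037 protein-coding genes had a start and strand in the promoter table. All 8 genes and 38 pathway genes matched by symbol. Exons and introns were not separated, and sequence was read from the promoter windows, not from whole peaks. Gene calls were tested on simulated summits (Python 3.11.15, numpy 2.4.6).

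The 8 genes and the pathway list were chosen with earlier results of these data known. All 8 genes, every pathway gene called at least once, CDKN1A and MDM2, and the 3 genes with the most alike pattern of each called gene are named. A further item that this rule names is not reported here. Libraries are the unit of comparison. Read depth is unknown, so no interval was given. The alternatives varied the gene window, the distance to the start, the −log10 q, the list length, the overlap rule and the libraries.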

Additional observations from a re-analysis of the deposited data

How the results depend on the processing

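Differences are CASM34 minus p53WT in the mean count per library. Genes of the 8 called, and summits at them, differed by 0.5 as reported and by 0 with a window of 2 kb or 50 kb, a required −log10 q of 3 or 5, lists of equal length, or the libraries numbered 2 alone. Leaving out 1 library gave -1.5 to 2.5, and the sign turned without CASM34 2 or without p53WT 1. Genes with a summit within 1 kb of a start differed by 0.5, by 0 with a required −log10 q of 3 or 5 and with the libraries numbered 1 alone, by -0.5 with lists of equal length, and by -1.5 to 2.5 with 1 library left out. The gene window and the overlap rule do not enter this count, but the distance to the start does. With 250 bp the count was 3 in CASM34 2 and 2 in p53WT 2, as the APAF1 summits lie farther away. With 5 kb it was 1 in CASM34 1, 4 in CASM34 2 and 4 in p53WT 2. The difference stayed 0.5 at both distances. Pathway genes differed by 3.5, by 2 with lists of equal length, by 0 with a −log10 q of 5 required, and by 0 to 7 with 1 library left out, the 0 being without CASM34 2. Shorter lists hold fewer peaks by construction; the cause of the other shifts was not tested. Overlap in place of the summit and keeping every deposited row changed none of the values they enter.

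The titles give the same numbers to both groups, but nothing says that a number marks a shared batch. With the numbers as a replicate block the differences stay 0.5, 0.5, 0.5 and 3.5, and 2 pairs cannot give a p below 0.5. Over the calls of 20037 protein-coding genes, the deviations of same-numbered libraries correlated at 0.22.

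With a −log10 q of 3 required, APAF1, AEN and PERP kept a call in both libraries numbered 2. At 5, APAF1 was called in CASM34 2 alone, PERP in p53WT 2 alone and AEN in both. With lists of equal length, APAF1 and AEN kept both calls and PERP that in p53WT 2. With unknown depth, an absent peak bounds nothing.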

Other observations

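Beyond 10 kb and within 100 kb of the 8 genes, 5 more summits were listed, all in the libraries numbered 2. A pair of these lay upstream of APAF1, 51400 bp away in CASM34 2 (−log10 q 2.57) and 51192 bp away in p53WT 2 (3.73). They were 204 and 412 bp downstream of the start of SLC25A3, the phosphate carrier of the inner mitochondrial membrane. PERP had a distal summit on either side and in different lists, 27701 bp outside the gene in CASM34 2 (1.37) and 22049 bp in p53WT 2 (1.35), neither inside an annotated gene. Both lay near the lowest value of their lists.

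Genes with the most alike pattern were those with the same calls in the 4 libraries and the smallest summed difference in best −log10 q. For APAF1 these were IKBIP (0, the same peaks), ARFGEF1 (0.129) and HIP1 (0.476), out of 839 genes with the same calls. For AEN they were MYL12A and MYL12B (0.628 each, sharing peaks) and YTHDF3 (0.886). For PERP they were C8orf82, LRRC14 and LRRC24 (0.786 each, sharing peaks). For AIFM2 they were GPC1 (0.012), TTC8 (0.022) and APLF (0.057), out of 68 genes. For BAX and BBC3 the pattern picks out few genes or far too many, since 4 genes tie with BAX at a difference of 0 and 241 tie with BBC3. In the order of their symbols these begin with CNOT8, FAXDC2 and MIGA1 for BAX and ABCA5, ABCB1 and ABCB6 for BBC3.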
